A study of Mus musculus with 6 samples.

Results

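The genes described here are 10 genes of the pathway by which cytokines of the interleukin-6 (IL-6) family act on cells. They comprise the receptor subunit genes Il6ra, Il6st, Lifr and Osmr, the transcription factor gene Stat3, the feedback inhibitor genes Socs1, Socs2, Socs3 and Cish, and the kinase gene Pim1. Genes were taken by name, and each of the 10 names matched 1 of the 25330 genes listed in every table. After hypoxia and reoxygenation, Stat3 and Pim1 were higher and Il6ra was lower than in control cells. Socs1 and Cish were also higher, but from low counts, and they entered the test only through their counts after treatment. Socs3, Socs2 and Il6st did not pass the test, and Lifr and Osmr had too few counts to be tested.

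Cytokines of the IL-6 family bind a ligand-specific subunit on the cell surface and signal through gp130, the product of Il6st, which they share. JAK kinases bound to the receptor then phosphorylate STAT3, which enters the nucleus and switches on target genes, among them its own gene, Pim1 and Socs3. SOCS proteins and CIS, the product of Cish, close the loop by binding receptors or JAK kinases, and in liver the pathway is known for driving the acute-phase response and for its part in regeneration.

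The 6 libraries were made from AML12, a line of mouse hepatocytes that was established from a mouse carrying a transforming growth factor alpha transgene and whose genotype is labelled WT. All cells were maintained in DMEM/F12 with 10% fetal bovine serum, an insulin, transferrin and selenium supplement and 40 ng/ml dexamethasone. The 3 Control libraries came from cells kept in 21% oxygen, and the 3 libraries labelled H6R2 (H/R) came from cells held for 6 h in 1% oxygen without serum or glucose and then reoxygenated for 2 h. Medium and oxygen changed together, so their effects cannot be told apart, and whether the H/R medium contained dexamethasone or the supplement is not given in the sources used here. The labels do not say whether replicates were separate cultures, and p-values therefore measure only the spread between these libraries.

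Reads counted on genes totalled 21026650 to 21854790 per Control library and 20438746 to 21742441 per H/R library. The hepatocyte transcription factor gene Hnf4a had 2912 ± 104 scaled counts in Control and 2187 ± 19.3 in H/R (SD, n = 3), where a scaled count is a count divided by the library's effective size and multiplied by the mean effective size. Of 10 hepatocyte markers 3 rose and 7 fell in H/R, but only 4 fell without H/R replicate 1, 5 without Control replicate 1, Control replicate 3 or H/R replicate 3, and 5 of 8 with at least 10 counts in each library (31.8% of all tested genes fell). The bile duct markers Krt19, Krt7 and Sox9 all rose, and their summed RPKM (reads per kilobase of counted length, scaled to the library total) was 534 to 609 in Control and 1009 to 1061 in H/R. Of 6 macrophage markers Adgre1, Clec4f and Ptprc had at most 3 counts in every library and Lyz2 at most 5, whereas Cd68 and Csf1r rose. The counts of the list summed to 65 to 78 in Control and 176 to 220 in H/R. Cd68 alone had 16, 22 and 22 counts in Control and 123, 113 and 137 in H/R. The endothelial genes Pecam1, Kdr, Lyve1 and Cdh5 and the stellate cell genes Lrat, Pdgfrb and Dcn also had at most 3 counts in every library. Control replicate 1 stood apart in 10 genes abundant in adult liver, which summed to 421 counts there and to 43 to 70 in each of the other 5 libraries. The part of these markers in the results that follow was not tested, and in bulk libraries fewer cells of a type and less RNA per cell cannot be told apart.

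Promoter sequences of 9 of the 10 genes were matched in RefSeq (GRCm38.p6), and 4 are shown because the results of these genes differ. Stat3 rose and Il6ra fell. Socs3 and Cish are both inhibitor genes with a STAT motif near the start of transcription. Socs3 did not pass the test, whereas Cish rose from low counts and was tested only through its H/R counts. Each sequence gives the 250 bases upstream of the start, 5′ to 3′ on the strand of the gene, and capitals mark matches to the STAT motif TTCNNNGAA in Socs3 and to the hypoxia response core ACGTG or its complement CACGT in Cish and Il6ra.
Socs3 (chr11:117969367-117969616, minus strand): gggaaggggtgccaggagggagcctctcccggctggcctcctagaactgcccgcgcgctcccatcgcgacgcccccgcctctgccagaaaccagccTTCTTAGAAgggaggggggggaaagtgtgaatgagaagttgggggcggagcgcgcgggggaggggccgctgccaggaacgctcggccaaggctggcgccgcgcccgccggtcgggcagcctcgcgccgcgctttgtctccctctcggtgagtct
Cish (chr9:107296409-107296658, plus strand): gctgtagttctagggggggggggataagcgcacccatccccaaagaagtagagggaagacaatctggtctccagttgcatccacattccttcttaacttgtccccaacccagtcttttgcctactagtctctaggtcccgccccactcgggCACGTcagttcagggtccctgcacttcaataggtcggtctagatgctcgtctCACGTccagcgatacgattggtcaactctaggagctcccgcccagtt
Stat3 (chr11:100939541-100939790, minus strand): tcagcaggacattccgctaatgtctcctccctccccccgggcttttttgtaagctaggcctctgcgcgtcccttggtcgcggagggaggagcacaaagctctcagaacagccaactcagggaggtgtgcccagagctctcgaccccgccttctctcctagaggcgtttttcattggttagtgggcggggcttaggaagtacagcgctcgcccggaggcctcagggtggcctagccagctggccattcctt
Il6ra (chr3:89913197-89913446, minus strand): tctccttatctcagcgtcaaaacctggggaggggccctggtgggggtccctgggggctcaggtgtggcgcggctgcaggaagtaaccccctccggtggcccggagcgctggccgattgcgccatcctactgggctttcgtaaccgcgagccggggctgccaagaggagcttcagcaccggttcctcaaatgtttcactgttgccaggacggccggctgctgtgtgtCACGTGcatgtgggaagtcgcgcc

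The STAT motif in the Socs3 promoter, TTCTTAGAA, lay at positions -154 to -146, counting the first transcribed base as 1. In Cish the motif occurred just after the start, as TTCCTGGAA at positions 1 to 9 and TTCTTGGAA at positions 12 to 20. The core CACGT lay at positions -99 to -95 and -47 to -43 of Cish, and the palindrome CACGTG at -24 to -19 of Il6ra and at -58 to -53 of the second of the Pim1 promoters. The AP-1 motif TGANTCA was matched only in Osmr, as TGATTCA at positions 4 to 10. No match to these motifs or to the STAT motif with a spacer of 4 instead of 3 bases was found on either strand in the windows of Stat3, Il6st, Socs1, Lifr or the first Pim1 promoter, which says only that those letters are not there. Over all 32851 windows of 300 bases, 250 before and 50 after the start, 8.30% held TTCNNNGAA, 6.95% the motif with the longer spacer, 19.6% ACGTG and 7.81% TGANTCA on either strand. A match in these windows is a description of the sequence and not a binding site.

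Il6st and Il6ra were the receptor subunit genes measured at levels that could be compared. Il6st encodes gp130, and its counts, given in replicate order as for all genes here, were 2219, 2212 and 2425 in Control cells and 1873, 2091 and 2329 in H/R cells. The ranges overlapped, with 2181 ± 93.1 scaled counts in Control and 2199.9 ± 162 in H/R (SD, n = 3). The log2 fold change (H/R over Control) was 0.01 with a 95% confidence interval of -0.09 to 0.12 (adjusted p = 0.832, quasi-likelihood test of edgeR, Benjamini-Hochberg adjustment over 14020 genes). Under the scaling used here, the interval ran from 0.940 to 1.08 of the Control level, and it does not cover the choice of scaling. The sign of this small value turned under upper quartile scaling (-0.057) and library totals (-0.092).

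Il6ra encodes the subunit that binds IL-6 itself, and it fell. Its counts were 298, 332 and 319 in Control and 203, 193 and 222 in H/R, so every H/R library was below every Control library. Scaled counts were 302 ± 20.9 in Control and 216 ± 7.17 in H/R (SD, n = 3), 1.40-fold lower in H/R. The log2 fold change was -0.48 (SE 0.0917, 95% interval -0.67 to -0.29, adjusted p = 2.56e-05, edgeR). Of the genes tested 62.8% passed this test, 31.0% as higher and 31.8% as lower, and 18.1% had a change as low as or lower than that of Il6ra. Exons of Il6ra share 242 bases, 2.80% of its counted length, with the gene Gm42809 on the opposite strand.

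Lifr and Osmr, which encode the partners of gp130 in the receptors for leukaemia inhibitory factor (LIF) and oncostatin M, were close to absent. Lifr had 9 counts in Control replicate 1 and 0 in every other library, and Osmr had 1 count in Control replicate 1 and 0 in every other library. All counts of both genes were therefore in the library that also held the most adult liver transcripts, which included 61 counts of the fibrinogen gene Fga against 0 in the other 5 libraries, and the part of these transcripts in the Lifr count was not tested. At the 10 values of 0, a limit of 3 counts corresponded to an RPKM of 0.0114 to 0.0142, and the RPKM of Il6st in the same library was at least 581-fold above it. Such limits cover counting error only. Lifr lies at chr15:7129559-7197489 on the plus strand and Osmr at chr15:6813577-6874969 on the minus strand (GRCm38), 254590 bases apart. Within 500000 bases of the pair, the gene of complement component C9 had 7 counts in Control replicate 1 and 0 elsewhere, and Rictor, a subunit of mTORC2, had 495 to 529 counts in Control and 1374 to 1589 in H/R. These neighbours were chosen after their values were seen.

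**Figure D1:**
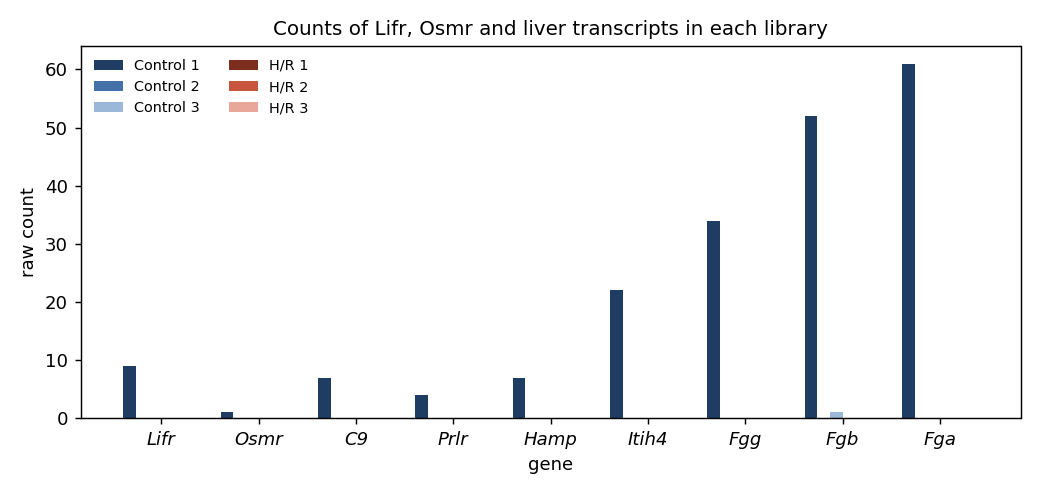
Raw counts of Lifr, Osmr, C9, Prlr, Hamp, Itih4, Fgg, Fgb and Fga in each of the 6 libraries, shown as 1 bar per library on a linear axis from 0. Lifr (9 counts) and Osmr (1 count) have a bar only in Control replicate 1, as do the other genes shown except for 1 count of Fgb in Control replicate 3. These other genes were chosen after their values were seen. Not all liver genes had this pattern, and Apoh, which is not shown, had 38 to 61 counts in every library.

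Stat3, which encodes the transcription factor at the centre of the pathway, rose. It had 925, 888 and 877 counts in Control and 1346, 1437 and 1539 in H/R. The groups were far apart relative to their spread, at 856 ± 26.6 scaled counts in Control and 1512.5 ± 54.7 in H/R (SD, n = 3). The change was 1.77-fold (95% interval 1.64 to 1.90), or 0.82 on the log2 scale (SE 0.0522, adjusted p = 1.10e-15, edgeR). This was past the adjusted threshold but short of 2-fold, and 6.31% of the genes tested rose by as much or more. Stat3 lies at chr11:100885098-100939540 on the minus strand, and 72 bases of its exons, 0.756% of the counted length, are shared with Stat5a on the opposite strand.

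Pim1, a serine/threonine kinase gene that STAT factors are known to activate, rose, and its H/R libraries were almost equal after scaling. It had 160, 159 and 137 counts in Control and 293, 291 and 312 in H/R. Scaled counts were 145 ± 14.1 in Control and 314 ± 1.89 in H/R (SD, n = 3), with no overlap. The change was 2.16-fold (95% interval 1.88 to 2.48), or 1.11 on the log2 scale (SE 0.0990, adjusted p = 6.67e-12, edgeR). A rise as large or larger was seen in 3.37% of the genes tested. Pim1 lies at chr17:29490812-29496111 on the plus strand, and 468 bases, 17.7% of its counted length, overlap exons of Gm26885 on the opposite strand. Gm26885 itself had 36, 33 and 19 counts in Control and 67, 62 and 68 in H/R. Whether the counting separated strands is unclear. The median RPKM of genes nested within an oppositely oriented gene was 0.957 of that gene's RPKM (209 pairs), and it was 0.328 for genes nested on the same strand (290 pairs). The share of Pim1 counts that belong to Gm26885 could not be determined.

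**Figure D2:**
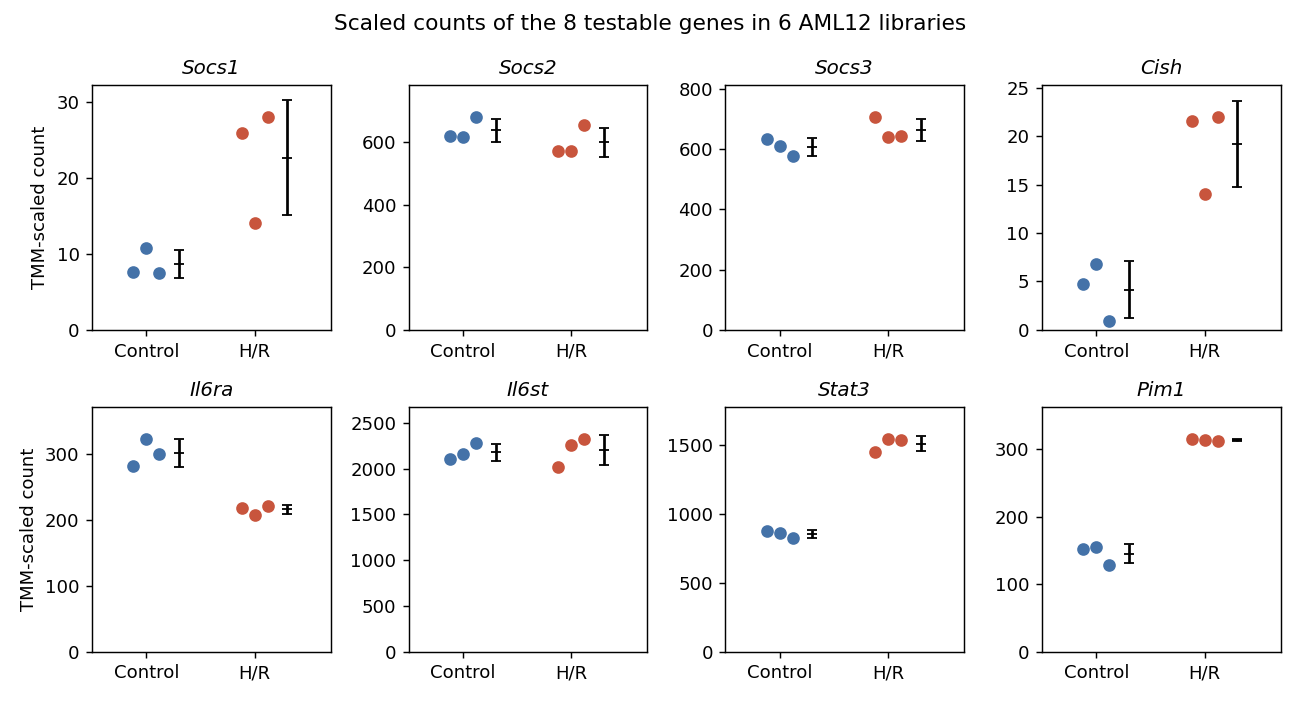
TMM-scaled counts of the 8 genes that could be tested, on linear axes that start at 0, with 1 point per library and the mean ± SD (n = 3) beside each group. Stat3 and Pim1 are higher and Il6ra is lower in every H/R library than in every Control library, whereas Il6st and Socs2 overlap.

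Of the inhibitor genes, Socs3 and Socs2 had at least 531 counts in every library, whereas Socs1 and Cish were low. Socs3 encodes the inhibitor that binds gp130 and its JAK kinases, and it had 668, 626 and 611 counts in Control and 656, 593 and 644 in H/R. After scaling, these became 606 ± 28.9 in Control and 663 ± 37.6 in H/R (SD, n = 3), and the scaled groups did not overlap although the raw counts did. The change was 1.09-fold (95% interval 1.00 to 1.20), or 0.13 on the log2 scale, and did not pass the test (adjusted p = 0.0754, unadjusted p = 0.0494, edgeR). On the log2 scale the upper end of its interval was 0.26, below the lower ends for Stat3 (0.72) and Pim1 (0.91).

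Socs2 encodes an inhibitor of growth hormone signalling that STAT5 is known to induce. Its counts were 653, 631 and 723 in Control and 532, 531 and 654 in H/R, and the scaled groups overlapped at 638 ± 36.9 and 599.7 ± 46.6 (SD, n = 3). The log2 fold change was -0.09 (95% interval -0.22 to 0.05, adjusted p = 0.252, edgeR). It passed the test, as lower, with upper quartile scaling (-0.16, adjusted p = 0.0360) and with library totals (-0.19, adjusted p = 0.0171), under which the median of all tested genes also moved, from -0.01 to -0.08 and -0.12.

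Socs1 and Cish rose from low counts. Socs1, whose product inhibits JAK kinases directly, had 8, 11 and 8 counts in Control and 24, 13 and 28 in H/R. H/R replicate 2 was nearer to Control than the other H/R libraries, but the groups did not overlap. Scaled counts were 8.61 ± 1.83 in Control and 22.6 ± 7.52 in H/R (SD, n = 3), a 2.62-fold difference (95% interval 1.57 to 4.36, adjusted p = 0.00116, edgeR). On the log2 scale the change was 1.39 (SE 0.361).

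Cish, which like Socs2 is a known STAT5 target, had 5, 7 and 1 counts in Control and 20, 13 and 22 in H/R. Scaled counts were 4.17 ± 2.98 in Control and 19.2 ± 4.48 in H/R (SD, n = 3), again without overlap. The change was 4.54-fold with a wide 95% interval of 2.40 to 8.61, or 2.18 on the log2 scale (SE 0.454, adjusted p = 8.65e-05, edgeR). Of the genes tested, 0.606% rose by as much or more. Exons of Cish overlap Gm17040 over 261 bases (4.07%) and Gm17041 over 479 bases (7.46% of its counted length), both on the opposite strand. Gm17040 had 3, 2 and 0 counts in Control and 4, 11 and 5 in H/R. Gm17041, whose whole length of 479 bases lies within Cish exons, had 3, 2 and 1 counts in Control and 5, 6 and 11 in H/R. The share of Cish counts that belong to these genes could not be determined. Socs1 and Cish entered the test only because of their H/R counts, so that they had to differ to be tested. When 10 counts were required in every library neither was tested, and on log2(RPKM + 1) their changes were 0.44 and 0.14.

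Of the 8 genes tested, 5 passed the adjusted threshold, which 62.8% of all tested genes did, and 3 (Socs1, Cish and Pim1) also a 2-fold change, which 8.52% of all tested genes did, 4.25% as higher and 4.27% as lower. The groups did not overlap for 6 of the 8, against 65.9% of all genes tested, and for each of these 6 the exact two-sided permutation test gave p = 0.1, the smallest value that 3 against 3 libraries allow. The corresponding exact p was 0.3 for Socs2 and 0.9 for Il6st. Because Socs1 and Cish entered only through their H/R counts, these counts are a description and say nothing of the genes as a group.

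**Figure D3:**
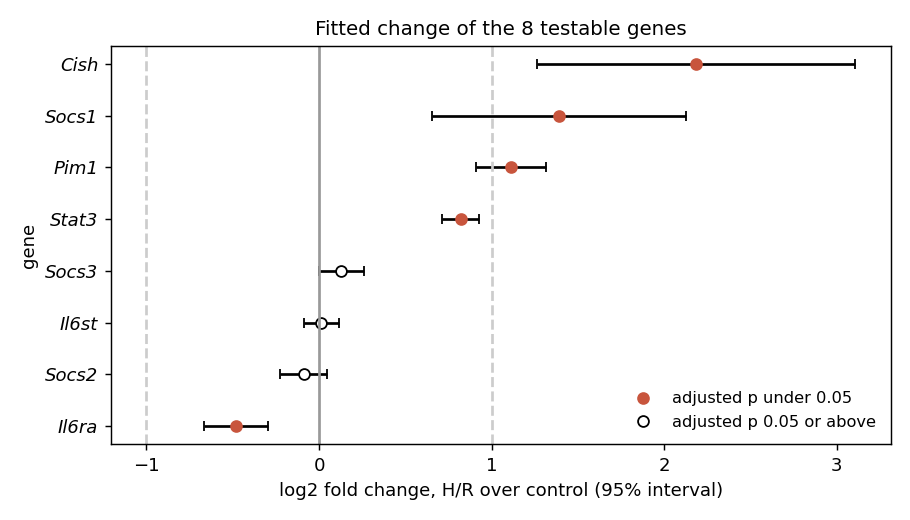
Log2 fold change (H/R over Control) of the 8 tested genes, with bars for the 95% confidence interval, filled points for an adjusted p under 0.05 and dashed lines at 2-fold. Stat3 (0.82), Pim1 (1.11), Socs1 (1.39) and Cish (2.18) lie above 0, Il6ra (-0.48) lies below it, and the intervals are widest for the low-count genes Cish and Socs1.

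Per length, the genes spanned a wide range of levels. In Control cells the mean RPKM was highest for Socs3 (10.3) and Il6st (9.63), whose ranges over the 3 libraries overlapped. These were followed by Stat3 (4.40), Socs2 (3.28), Pim1 (2.69), Il6ra (1.71) and Socs1 (0.345), each with a range separate from its neighbours. Cish (0.0316), Lifr and Osmr were lowest, and their neighbouring ranges overlapped. The order depends on the counted length of each gene, such as 6419 bases for Cish and 1220 for Socs1. In H/R the mean RPKM of Socs3 was 10.4 and that of Il6st 9.03, with separate ranges. Pim1 (5.42) had passed Socs2 (2.87), while Stat3 (7.23) ranked next after Il6st, Il6ra (1.14) was above Socs1 (0.845), and Cish reached 0.136.

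**Figure D4:**
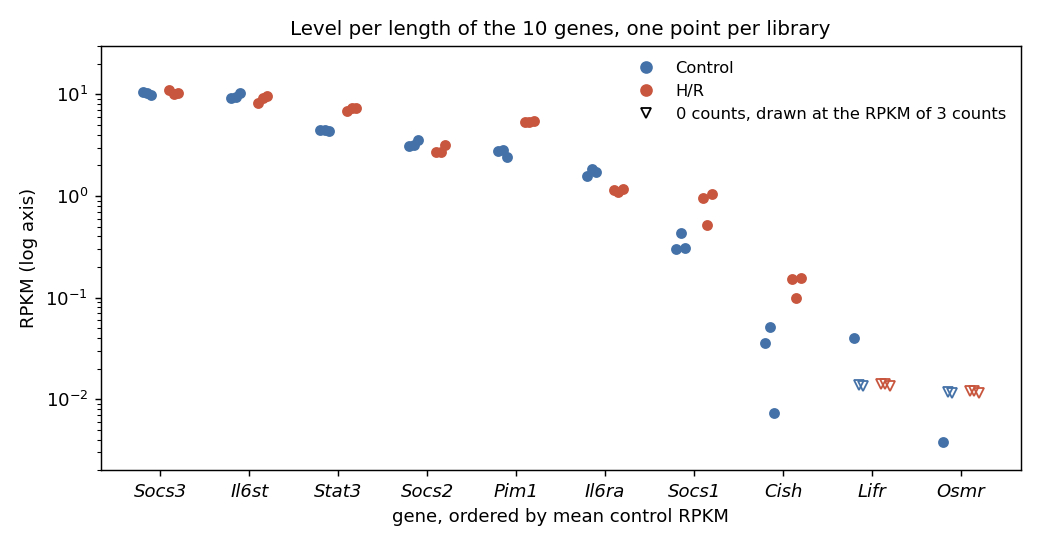
RPKM of the 10 genes in each library on a logarithmic axis, with 1 point per library and open triangles for values of 0, drawn at the RPKM of 3 counts. The genes range from Socs3 (10.3 in Control) down to Cish (0.0316), and Lifr and Osmr have values above 0 only in Control replicate 1.

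Ratios of RPKM within a library compare pairs of genes without regard to the scaling between libraries. The ratio of Il6st to Il6ra was 5.80, 5.19 and 5.92 in Control and 7.18, 8.44 and 8.17 in H/R, a log2 difference of 0.49. The ratio of Socs3 to Socs1 was 35.2, 24.0 and 32.2 in Control and 11.5, 19.3 and 9.71 in H/R, a log2 difference of -1.22. The ratio of Socs2 to Cish was 88.0, 60.7 and 487 in Control and 17.9, 27.5 and 20.02 in H/R, a log2 difference of -2.68. The value of 487 rests on 1 count of Cish in Control replicate 3, and without that library the difference was -1.77. None of the 3 ratios overlapped between the groups, and each gave an exact permutation p of 0.1, also 0.1 after adjustment over the 3. The last 2 ratios have Socs1 or Cish as denominator, genes that were kept because they were high in H/R, so their separation is a description.

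The ligand and signalling genes around these members were then examined in 11 lists of 97 further pathway genes, of which 66 were tested. Of these, 34 rose, 12 fell and 20 did not pass, a share of 69.7% past the test beside 62.8% for all genes tested. Over all genes tested, 31.0% rose and 31.8% fell. The median log2 fold change of the list genes was 0.19, against -0.01 over all genes. The lists were chosen with earlier results of these data known, so these differences from all genes are a description. The other SOCS genes, Socs4, Socs5, Socs6 and Socs7, all rose (4 of 4). Socs5, which is linked to EGF receptor and IL-4 signalling, had 204 ± 23.4 scaled counts in Control and 433 ± 24.5 in H/R (SD, n = 3; log2 fold change 1.09, adjusted p = 1.07e-12, edgeR), and Socs4 moved least (0.19). Socs4 no longer passed with upper quartile scaling (adjusted p = 0.129), library totals (0.309) or DESeq2 (0.0615), while its value stayed above 0. The count of SOCS genes that rose was also 3 of 4 on log2(RPKM + 1) and without Control replicate 1, Control replicate 3 or H/R replicate 3.

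Among the 10 ligand genes of the family 3 were tested, of which 2 rose. Lif, the cytokine that acts through LIFR and gp130, had 288, 270 and 243 counts in Control and 492, 564 and 595 in H/R. These groups did not overlap, and the log2 fold change was 1.18 (adjusted p = 1.32e-14, edgeR). Clcf1, which encodes a cytokine that signals through the CNTF receptor, also rose (0.61, adjusted p = 4.14e-07). It was chosen after its values were seen, since it did not reach 2-fold. Il6, Osm, Il27 and Ebi3 had at most 3 counts in every library. Lif was measured in the same libraries in which Lifr was at or near 0.

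Of 3 further subunits of the family only Il11ra1 was tested, at a log2 fold change of -0.03 that did not pass, and Cntfr and Il27ra had at most 3 counts in every library. Among 13 other receptor genes of the JAK-STAT pathway, 9 were tested, 2 rose and 2 fell. With upper quartile scaling, library totals or log2(RPKM + 1), 3 fell. The same count fell without Control replicate 1, Control replicate 2 or H/R replicate 3. Il22ra1, the specific subunit of the IL-22 receptor, fell in every H/R library, from 255, 205 and 245 counts to 53, 83 and 62 (log2 fold change -1.69, adjusted p = 1.66e-12, edgeR). This was a 3.23-fold lower level, and no other gene of the list passed 2-fold.

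Of the 4 JAK kinase genes 1 rose, 1 fell and 2 did not pass the test, and the median log2 fold change was 0.02. Jak1, the main kinase of gp130, rose (0.74, adjusted p = 7.27e-17, edgeR) and Tyk2 fell (-0.46), both short of 2-fold and chosen after their values were seen. Among the other STAT genes Stat6 rose (0.37), and the change of Stat3 (0.82) was the highest of the STAT genes tested. Of 12 other inhibitors 11 were tested, 8 rose and 1 fell, while of all genes tested 31.0% rose and 31.8% fell. With upper quartile scaling, library totals or log2(RPKM + 1), 7 inhibitors rose and 2 fell. Without Control replicate 3 or without H/R replicate 2, 7 rose. Cblb, a ubiquitin ligase gene, rose most among the 11 tested genes of this list of other inhibitors (1.16, adjusted p = 2.57e-18, edgeR). Of the other PIM kinase genes, Pim3 rose (1.00) and Pim2 fell (-0.53, adjusted p = 0.0146, edgeR), in the opposite direction to Pim1, although Pim2 did not pass with DESeq2 (adjusted p = 0.0971), without Control replicate 1 or without H/R replicate 1.

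Genes known to respond early to STAT3 and to other signals moved in both directions. Of 15 such genes 10 rose, 2 fell and 3 did not pass, with a median log2 fold change of 0.70. The largest changes were those of the AP-1 genes Fos (2.05) and Junb (2.03), Myc (1.86) and the angiogenic factor gene Vegfa (1.74), each with its 3 H/R libraries above its 3 Control libraries. Bcl3 (-0.65) and the cyclin gene Ccnd1 (-0.61) fell, and were chosen after their values were seen. These genes also respond to other stimuli, so the list does not measure STAT3 activity alone. Exons of Junb, Bcl3 and Ccnd1, and of Jak1, Tyk2, Stat6, Il11ra1 and Onecut1 in the other lists and the marker Csf1r, overlap another gene, and their values are uncertain to that extent.

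Of 24 acute-phase genes 23 were in the tables and 10 were tested, of which 5 rose and 3 fell, with a median log2 fold change of 0.50. Among all genes tested 31.0% rose and 31.8% fell, and the median was -0.01. Only 2 acute-phase genes fell with DESeq2, and only 2 when any library except H/R replicate 3 was left out. Lcn2, which encodes an iron-siderophore binding protein, rose (1.34, adjusted p = 2.70e-17, edgeR), as did Saa3 (1.08) and Orm1 (1.10), whose values are uncertain because it has a near-identical copy, Orm2. Steap4, a metalloreductase gene, fell from 54, 35 and 55 counts to 4, 3 and 1, a log2 fold change of -3.97 (SE 0.398, adjusted p = 1.18e-10, edgeR). Steap4 entered the test only through its Control counts, and with at least 10 counts required in each library it was not tested and 2 genes of the list fell. The fibrinogen genes, which are classical IL-6 targets in liver, were at 0 to 1 counts in every library except Control replicate 1 and were not tested. Of 6 genes linked to growth hormone and STAT5, 4 were tested and Onecut1 fell (-0.92). None passed as higher with all libraries, but 1 did without Control replicate 1 and without H/R replicate 2.

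**Figure D5:**
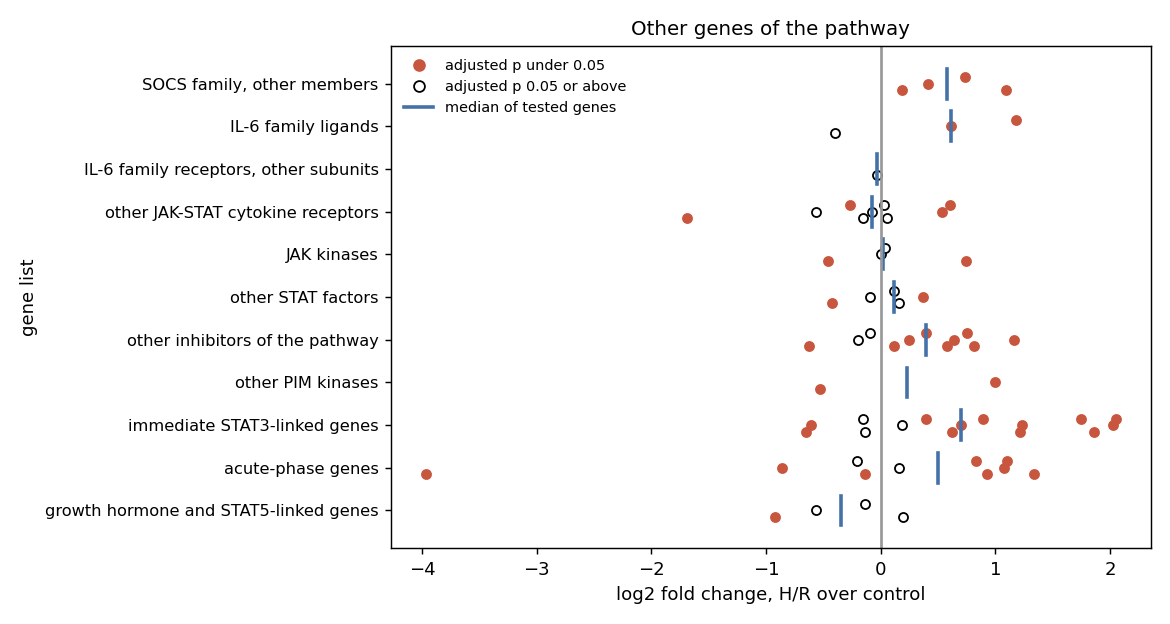
Log2 fold change (H/R over Control) of the tested genes in each of the pathway lists, with 1 point per gene, filled where the adjusted p was under 0.05, and a bar at the median. The other SOCS genes all lie above 0, and the early STAT3-linked and acute-phase lists hold genes on both sides of 0.

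The genes with the most similar profiles over the 6 libraries were found for Cish and Socs1 by the Euclidean distance of library-scaled log2 counts (log2 CPM) centred on each gene's mean. For Cish these were Hilpda (distance 0.927), Inhba (1.01) and Wnt7a (1.06), and their log2 fold changes were 1.72, 2.25 and 1.79. For Socs1 they were Pqlc3 (0.569), Socs5 (0.629) and Plekhf1 (0.656), and their log2 fold changes were 0.89, 1.09 and 1.03. Cish and Socs1 were searched because they had the largest changes, and both entered the test only through their H/R counts. The distance includes the difference between the groups, so these matches are a description and say nothing of a shared family. Genes under a mean of 100 counts, or sharing exons with a neighbour, were not searched.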

How the data were processed

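RNA was sequenced as stranded mRNA libraries with paired ends, and the authors mapped the reads to GRCm38. The submitters' processing notes name Trimmomatic 0.36, featureCounts of Subread 1.5.1 and edgeR 3.12.1, and the gene annotation is not given in the sources used here. The authors deposited raw counts, whole numbers of reads for each gene. They also deposited RPKM, which could be recomputed from count, length and library total (largest relative error 1.13e-06). In 24 rows of each table the symbol had been turned into a date, and these rows were kept but not named.

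The 3 H/R libraries were compared with the 3 Control libraries in edgeR 4.0.16 (R 4.3.3; filterByExpr, TMM scaling, robust quasi-likelihood fit), and p-values were adjusted by Benjamini-Hochberg over the 14020 genes kept. The thresholds were an adjusted p of 0.05 and, where stated, a 2-fold change. The common coefficient of variation between libraries in the fit, which edgeR terms biological, was 0.0502. Standard errors came from the F statistic, and exact permutation tests were two-sided. The scripts were tested on simulated counts in which far fewer genes changed than passed the test here, so that check does not bear on the scaling. Replicates were not copies of a library (chi-square over degrees of freedom 2.19 to 16.2).

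The members and gene lists were chosen with earlier results of these data known. All members are named, and from each pathway list at most 4 genes past both thresholds with a mean of 20 counts or more, besides genes with at most 3 counts in every library. Other genes named, which are the markers, Socs4, Socs6, Socs7, Orm2, Il11ra1, Stat6, Pim2, Pim3, Onecut1 and those so described in the text, were chosen after their values were seen. Results of some genes on the lists are not reported here. A planned ratio of Osmr to Lifr could not be computed from values of 0. Same-numbered libraries did not deviate together (correlations -0.03, 0.00 and -0.01), so the numbers were not treated as pairs. Promoters came from RefSeq (GRCm38.p6), and gene coordinates from the authors' tables. The alternatives were DESeq2 1.42.0, upper quartile scaling, library totals, no filter, a minimum of 10 counts in each library, a fit with replicate number as a block, limma 3.58.1 on log2(RPKM + 1), and omission of each library in turn.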

Additional observations from a re-analysis of the deposited data

How the results depend on the processing

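Il6ra, Stat3 and Pim1 kept their direction and passed the adjusted threshold under every alternative, with log2 fold changes of -0.59 to -0.34, 0.61 to 0.85 and 0.80 to 1.16, and Socs3 passed under none (0.02 to 0.16, adjusted p 0.0553 to 0.751). The sign of Il6st reversed with upper quartile scaling (-0.057), library totals (-0.092) and limma on log2(RPKM + 1) (-0.084), and ranged from -0.027 to 0.072 when each library was left out. Socs2 passed as lower under the same scalings, at -0.16 (adjusted p = 0.0360) and -0.19 (adjusted p = 0.0171), while its distance from the median of all genes stayed at -0.07. With at least 10 counts in every library, 3 members passed the test and 1 also 2-fold, because Socs1 and Cish were then not tested. On log2(RPKM + 1), which compresses low values, 406 genes and 0 members passed both thresholds. Leaving out each library gave 5 members past the test and 3 past both thresholds each time, with 8105 to 8521 and 1211 to 1290 genes. A fit with a block for replicate number gave 1200 genes and 3 members past both thresholds and 5 members past the test, and 1 of the 4 tested genes linked to growth hormone and STAT5 then rose. Without a filter 1521 genes passed both thresholds, and 6 members passed the test, the added gene being Lifr on its 9 counts in 1 library, for which DESeq2 gave no adjusted p. The share of higher genes among those past both thresholds was 49.9% with TMM, 41.3% under upper quartile scaling and 37.0% under library totals. The low counts of Socs1 and Cish, and the 0 values of Lifr and Osmr, limit what depth can show.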

Other observations

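Several receptor and ligand genes that were too low to be tested had counts in few libraries, and these were chosen after their values were seen. Epor, the erythropoietin receptor gene, had 0, 2 and 0 counts in Control and 8, 10 and 3 in H/R. Il11, a further ligand of the gp130 family, had 4, 5 and 3 counts in Control and 5, 7 and 8 in H/R. Usp18, an inhibitor of interferon receptor signalling, had 6, 10 and 8 counts in Control and 2, 4 and 1 in H/R. Prlr, the prolactin receptor gene, had 4 counts in Control replicate 1 and 0 in every other library, the distribution also seen for Lifr and Osmr. Cebpb, a transcription factor gene of the acute-phase response, had 785, 922 and 1429 counts in the H/R libraries against 1166 to 1358 in Control, a spread within H/R wider than the difference between the groups, and it did not pass the test (log2 fold change -0.15, adjusted p = 0.608, edgeR). Exons of Cebpb and Usp18 overlap another gene, and their values are uncertain to that extent.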
